A study of Mus musculus with 21 samples.

Results

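The effect of losing TET2 was examined in peritoneal B-1b cells over all genes outside the immunoglobulin loci, that is, over genes whose GENCODE gene type does not begin with IG_. By this rule 55879 of the 56953 genes in the files were kept; 431 immunoglobulin genes and 643 genes without a gene type in the annotation used were set aside. The 7 B-1b libraries, of 21 in the series, came from the peritoneal cavity of C57BL/6 mice, 4 from WT mice (WT 1 to 4) and 3 from mice with a global knockout (TET2-KO 1 to 3). The knockout allele lacks the exons that code for the catalytic region of TET2 in every cell of the animal, so effects that arise within B-1b cells and effects of other TET2-deficient cells cannot be told apart. B-1b cells had been sorted as B cells low for CD23, IgD and B220 and negative for CD5. The study counts these samples as mice, 4 WT and 3 TET2-KO for B-1b, which equals 1 mouse per library. Their age in weeks, and whether libraries of different subsets came from the same mice, are not given in the sources used here.

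TET2 is a dioxygenase that oxidizes 5-methylcytosine to 5-hydroxymethylcytosine, a step toward removal of the methyl group from CG sites in promoters and enhancers. It also acts through partner proteins that modify histones, and its gene is a frequent site of loss-of-function mutations in clonal hematopoiesis. B-1 cells are long-lived innate-like B cells that arise largely in fetal life, renew themselves in body cavities and secrete natural IgM. B-1b cells are the CD5-negative subset, known for lasting T cell-independent antibody responses.

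Total counts of the B-1b libraries ranged from 14923926 to 21587020, with a median of 17654538, and immunoglobulin genes took 4.28 to 7.12% of them. The number of genes with at least 1 count ranged from 17816 to 27677. Values below are normalized read counts (CPM, counts scaled to a common library size by the trimmed mean of M values), fold changes are TET2-KO over WT on the log2 scale with their standard error (SE), and tests are edgeR quasi-likelihood tests with Benjamini-Hochberg adjustment over all genes tested. Replicate numbers name libraries only.

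Before any comparison, the libraries were checked against their label. The B cell genes Ms4a1 (2451 to 4243 CPM) and Cd79a (6756 to 13200 CPM) were high in all 7. Cd5, which the B-1b gate excludes, was at 17.6 CPM in WT 1 against 2.02 to 5.15 CPM in the other B-1b libraries; in the 4 TET2-KO libraries of B-1a cells, which are sorted as CD5+, it was at 15.9 to 21.1 CPM (values of other subsets here and below were scaled over all 21 libraries). Fcer2a, which codes for CD23, was at 565.3 CPM in WT 2 against 16.4 to 69.9 CPM in the others, and TET2-KO B-2 libraries had 484.1 to 833.5 CPM. Satb1 (60.9 CPM) and Flt3 (43.0 CPM) were also high in WT 2, whereas Bhlhe41, a transcription factor that B-1a cells need, was at 8.67 CPM there against 19.9 to 31.8 CPM elsewhere. WT 1 and WT 2 thus did not carry the marker pattern of their label. WT 3, WT 4 and the 3 TET2-KO libraries did. Genes are therefore described against all 4 WT libraries and against WT 3 and WT 4 alone, and where 2 log2 fold changes of 1 gene follow each other unnamed, the first is against all 4. A gene is said to hold if, against WT 3 and WT 4, it kept its direction, its groups did not overlap and its unadjusted p was under 0.05. Both comparisons use the same TET2-KO libraries and WT 3 and WT 4, so holding is not independent evidence.

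**Figure D1:**
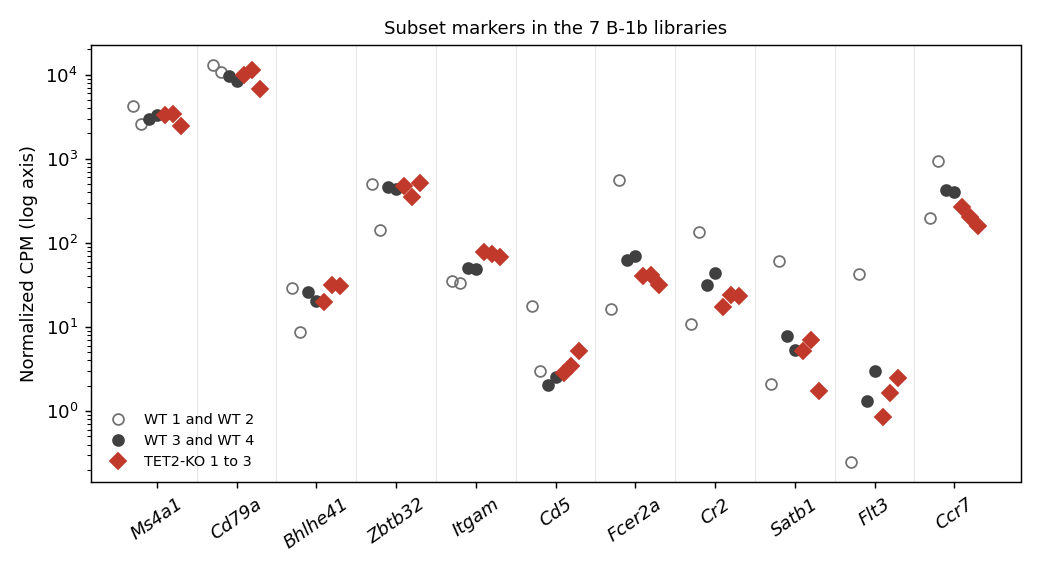
Normalized CPM (log axis) of B cell, B-1 and B-2 markers in the 7 B-1b libraries, with open circles for WT 1 and WT 2, filled circles for WT 3 and WT 4, and diamonds for TET2-KO 1 to 3. WT 1 stands apart in Cd5 (17.6 CPM), and WT 2 stands apart in Fcer2a (565.3 CPM), Satb1 (60.9 CPM) and Flt3 (43.0 CPM).

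Transcripts listed as markers of other cells were present. Macrophage markers summed to 15100 to 19550 CPM in WT and 7980 to 17770 CPM in TET2-KO libraries, of which Lyz2 made up the largest share; mast cell and granulocyte markers summed to 344.2 to 746.6 CPM, and T and NK cell markers to 26.9 to 117 CPM. The T cell receptor gene Cd3g was at 45.1 CPM in WT 1 and at 4.87 to 11.3 CPM in the other 6 libraries. In B-1a cells Cd3g was at 37.02 and 52.48 CPM in WT 3 and WT 4 and 12.96 to 36.55 CPM in TET2-KO. Mesothelial and stromal markers summed to 181.8 CPM in WT 1 and to 18.9 to 64.5 CPM in the others, with the keratin gene Krt8 at 154.1 CPM in WT 1 and 11.8 to 39.4 CPM elsewhere. In B-1a cells Krt8 was at 115.8 and 78.51 CPM in WT 3 and WT 4 and 22.96 to 48.77 CPM in TET2-KO. Whether Cd3g and Krt8 in WT 1 came from B-1 cells or from other cells was not tested. Dendritic cell markers summed to 28.2 to 72.5 CPM in WT and 19.9 to 25.8 CPM in TET2-KO, with no overlap. Flt3 made up 43.0 CPM of the 72.5 CPM in WT 2, and Ccr9 22.1 CPM of the 47.0 CPM in WT 1. In B-1a WT 3 and WT 4, Ccr9 was at 18.8 and 17.5 CPM. WT 3, at 28.2 CPM, lay just above the TET2-KO libraries. The defining mesothelial and fibroblast genes Msln and Col1a1 were at or near 0 in all 7 libraries, at no more than 0.21 CPM, whereas the stromal proteoglycan gene Dcn reached 4.58 CPM in TET2-KO 3. In bulk RNA, fewer cells of a type and less RNA per cell cannot be told apart.

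No gene outside the immunoglobulin loci passed the test in B-1b cells. Against all 4 WT libraries, 14070 genes were tested, 0 had an adjusted p under 0.05, and the smallest adjusted p was 0.218. An unadjusted p under 0.05 was reached by 712 genes (5.06%), of which 463 (3.29% of genes tested) were higher and 249 (1.77%) lower in TET2-KO. Against WT 3 and WT 4, 15131 genes were tested with 0 adjusted calls, a smallest adjusted p of 0.789, and 301 genes (1.99%) with an unadjusted p under 0.05, 140 higher (0.925%) and 161 lower (1.06%). DESeq2 called 38 of 14784 genes (0.257%) against all WT libraries, 20 higher (0.135%) and 18 lower (0.122%), and 23 of 17408 (0.132%) against WT 3 and WT 4, 11 higher (0.0632%) and 12 lower (0.0689%); 8 genes were called in both. Of the 38, 10 had over 50% of their counts in a single library and 9 were too low to enter the edgeR fit. Groups did not overlap for 36 of the 38, and 28 held. Of the 23, 21 did not overlap and 20 held. DESeq2 also called 8 of the 10 higher and 10 of the 10 lower genes chosen below by edgeR p against all WT libraries. Both tools used the same counts, so this is not independent evidence.

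Groups that did not overlap were found for 560 higher genes (3.98%) and 497 lower genes (3.53%) against all WT libraries, and for 1231 higher (8.14%) and 1658 lower genes (11%) against WT 3 and WT 4, where fewer libraries have to separate. Of genes with both an unadjusted p under 0.05 and no overlap against all WT libraries, 275 were higher and 184 lower. Against WT 3 and WT 4, 59 of the 275 and 66 of the 184 held. All but 2 of the 275 kept groups apart, but this was fixed in advance up to scaling. WT 3 and WT 4 are among the 4 WT libraries that these genes had already been chosen to separate from. For such genes, holding rested on the unadjusted p alone. Of the 184, 3 were too low there to be tested. The median log2 fold change of the 275 went from 0.92 to 0.73, and that of the 184 from -0.68 to -0.56.

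The Tet2 gene itself does not check the knockout here, because the files count whole genes, undeleted exons included. Tet2 was at 10.3, 9.63, 16.9 and 20 CPM in WT 1 to 4 and 15.7, 19.1 and 17.3 CPM in TET2-KO 1 to 3. The groups overlapped, with a log2 fold change of 0.29 (SE 0.29) against all WT libraries and -0.088 (SE 0.24) against WT 3 and WT 4; Tet2 did not hold. None of the 17 listed TET, DNMT and linked methylation enzymes had an unadjusted p under 0.05 in either comparison. Of genes within 20 Mb of Tet2, 78 were higher and 81 lower, and 3 had an unadjusted p under 0.05, all higher, beside 3.29% of all genes in this direction. Among the genes of this region, Fubp1, which codes for a nucleic acid-binding regulator of Myc (log2 fold change 0.35, SE 0.13), had groups that did not overlap, and it did not hold.

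In the list of class switch and germinal centre genes, 6 of 16 genes were higher and 10 lower, with a median of -0.19 beside -0.003 over all genes tested. Pou2af1, a coactivator of octamer-binding factors in B cells, was lower by more than the spread (554.6 to 934.8 CPM in WT, 453.9 to 513.7 CPM in TET2-KO; log2 fold change -0.59, SE 0.21, and -0.335, SE 0.18, against WT 3 and WT 4) and did not hold.

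Anxa2r1, named as an annexin A2 receptor, had the smallest unadjusted p of all member genes. It was at 9.37, 6.81, 8.96 and 7.86 CPM in WT 1 to 4 and 26.1, 23.5 and 17.5 CPM in TET2-KO 1 to 3. The groups were far apart, the log2 fold change was 1.44 (SE 0.22; edgeR adjusted p 0.218), and 1.41 (SE 0.29) against WT 3 and WT 4; Anxa2r1 held.

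Itgam, Nlrc5 and Tlr7 were higher in every TET2-KO library. Itgam codes for CD11b, an integrin chain that marks peritoneal B-1 cells as well as macrophages. It was at 35.04, 33.4, 49.8 and 49.1 CPM in WT 1 to 4 and 77.0, 74.4 and 67.2 CPM in TET2-KO 1 to 3, and it held with a log2 fold change of 0.80 (SE 0.19) against all WT libraries and 0.56 (SE 0.18) against WT 3 and WT 4. WT 1 and WT 2 lay below WT 3 and WT 4, so the difference shrank without them. The macrophage gene Adgre1, which CD11b-positive macrophages carry, was at 148.4 to 177.2 CPM in WT and 159.3 to 221 CPM in TET2-KO, and its part in the Itgam difference was not tested. Nlrc5, a transactivator of MHC class I genes, was at 5.02, 6.86, 10.3 and 11.8 CPM in WT and 26.6, 14.6 and 34.7 CPM in TET2-KO libraries (log2 fold change 1.57, SE 0.37, and 1.19, SE 0.38, against WT 3 and WT 4), and held. Tlr7, the endosomal sensor of single-stranded RNA, was at 14.4 to 23.0 CPM in WT and 27.6 to 37.8 CPM in TET2-KO (log2 fold change 0.73, SE 0.21, and 0.70, SE 0.25, against WT 3 and WT 4), and also held; over the list of Toll-like receptors 8 genes were higher and 9 lower.

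Sp140l2 and Gm2619 lie next to each other on chromosome 1 of GRCm39, with starts 316 kb apart (1:84970411-85248287 and 1:85286380-85305006). Sp140l2 belongs to the family of SP140 nuclear body proteins, and Gm2619 is annotated as a long noncoding RNA. Sp140l2 was at 19.2, 8.42, 28.4 and 31.2 CPM in WT 1 to 4 and 63.4, 63.3 and 64.0 CPM in TET2-KO 1 to 3. Gm2619 was at 3.43, 2.22, 8.81 and 8.49 CPM in WT and 36.9, 31.7 and 9.96 CPM in TET2-KO. Both separated the groups, though TET2-KO 3 was close to WT 3 and WT 4 in Gm2619. The log2 fold changes were 1.54 (SE 0.37) and 2.19 (SE 0.56) against all WT libraries and 1.09 (SE 0.18) and 1.601 (SE 0.54) against WT 3 and WT 4, and both genes held. The body of Sp140l2 overlaps 18 other annotated genes in a repeated gene cluster, and fragments that match several genes were left out of the files, so its level is uncertain.

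Also among the 10 higher genes with the smallest p were Lifr, the receptor of leukemia inhibitory factor, Slc27a3, of the fatty acid transport family, Spire1, an actin nucleator, and the vomeronasal receptor Vmn2r26. Their log2 fold changes ranged from 1.17 (Vmn2r26) to 2.40 (Spire1) against all WT libraries and from 0.89 (Lifr) to 1.89 (Spire1) against WT 3 and WT 4. All 4 held. Spire1 and Slc27a3 were low, at no more than 2.28 and 6.98 CPM in any WT library. WT 1 and WT 2 were the lowest libraries for Lifr, Slc27a3, Spire1, Nlrc5 and Gm2619.

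**Figure D2:**
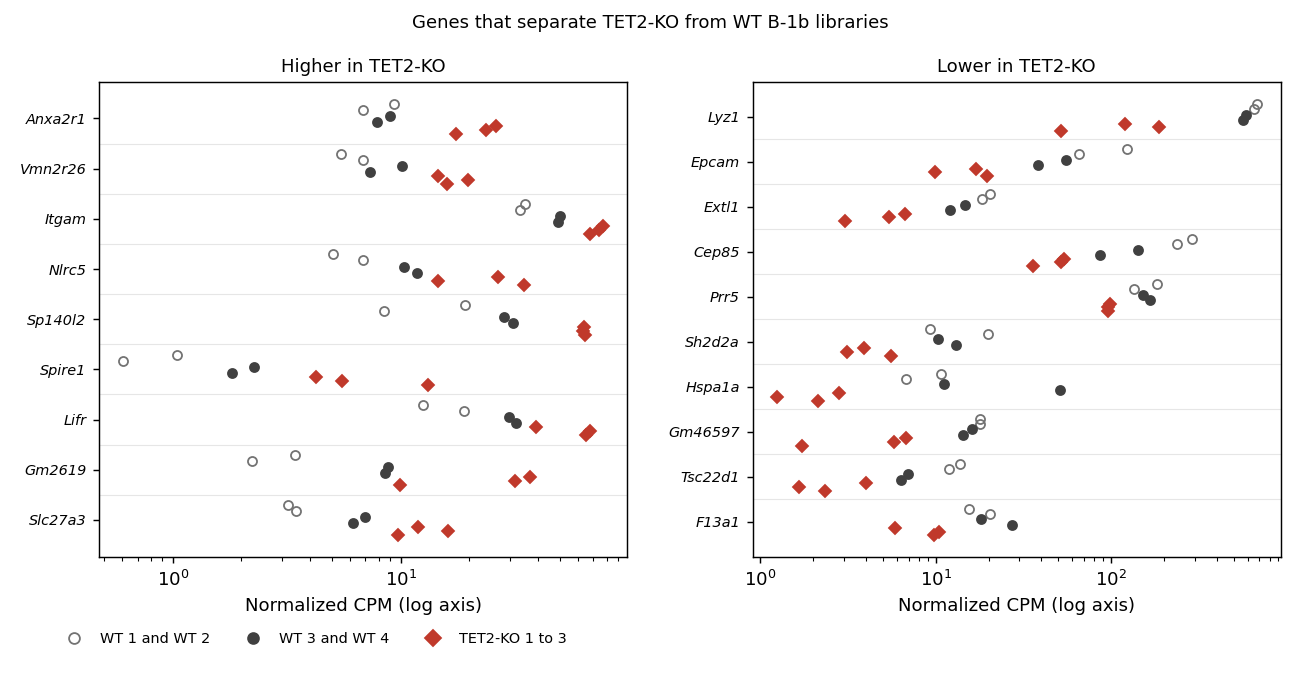
Normalized CPM (log axis) in each B-1b library for the named genes among the 10 with the smallest unadjusted p in each direction, taken from genes whose groups do not overlap and that reach a mean of 5 CPM in a group. Open circles are WT 1 and WT 2, filled circles WT 3 and WT 4, and diamonds TET2-KO 1 to 3. In Sp140l2 the TET2-KO libraries lie at 63.3 to 64.0 CPM, above every WT library, and in Lyz1 at 51.8 to 186.9 CPM, below every WT library.

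Against WT 3 and WT 4 alone, other genes came to the fore. They were chosen there for a small unadjusted p and groups that did not overlap. Their holding was therefore fixed in advance apart from direction and is no support. Fgl2, which codes for a secreted fibrinogen-like regulator of immune cells, was at 96.1, 29.5, 59.5 and 69.5 CPM in WT 1 to 4 and 128, 131.5 and 121.7 CPM in TET2-KO 1 to 3. It lay higher in every TET2-KO library, with log2 fold changes of 1.00 (SE 0.32) and 0.98 (SE 0.18), and held. Dhx40, an RNA helicase, stood at 0.95 (SE 0.28) and 1.16 (SE 0.25) and held, with WT 2 (78.0 CPM) inside the TET2-KO range.

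Ociad2, Pou2af2 and Tnfrsf19 separated only once WT 1 had been left out. They too were chosen against WT 3 and WT 4, so their holding was likewise fixed apart from direction. Ociad2, a mitochondrial membrane protein gene, was at 6.98, 0.20, 0.30 and 0.68 CPM in WT 1 to 4 and 4.80, 10.6 and 7.15 CPM in TET2-KO 1 to 3. Pou2af2, a coactivator of POU2F factors, was at 609.6, 45.2, 117.3 and 111.2 CPM in WT and 202.6, 265.4 and 200.4 CPM in TET2-KO, and Tnfrsf19, a TNF receptor family member, at 70.8, 10.1, 14.98 and 20.5 CPM in WT and 51.1, 30.1 and 68.6 CPM in TET2-KO. WT 1 was at or above TET2-KO in Pou2af2 and Tnfrsf19 and within their range in Ociad2. Against WT 3 and WT 4 the log2 fold changes were 3.92 (SE 0.67) for Ociad2, 0.96 (SE 0.21) for Pou2af2 and 1.49 (SE 0.37) for Tnfrsf19. Over all 4 WT libraries they stood at 1.89 (SE 1.06), 0.01 (SE 0.72) and 0.78 (SE 0.61). All 3 genes held.

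Lyz1 had the smallest unadjusted p among lower genes. It codes for the P form of lysozyme and shares sequence with Lyz2, the macrophage form, and fragments that match several places were left out of the counts. Lyz1 was at 674.4, 656.1, 584.7 and 568.5 CPM in WT 1 to 4 and 120.6, 186.9 and 51.8 CPM in TET2-KO 1 to 3. The WT libraries lay close together, and each TET2-KO library lay far below them: the log2 fold change was -2.37 (SE 0.38; edgeR adjusted p 0.265, DESeq2 adjusted p 1.01e-08), and -2.26 (SE 0.47) against WT 3 and WT 4. Lyz1 held. Lyz2 was at 15070, 13800, 12660 and 10860 CPM in WT and 10140, 13360 and 5346 CPM in TET2-KO, and its groups overlapped.

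F13a1 and Pf4 were also lower in every TET2-KO library. F13a1 codes for the A chain of coagulation factor XIII, made by macrophages and megakaryocytes, and Pf4 for platelet factor 4. F13a1 was at 15.5 to 27.3 CPM in WT and 5.87 to 10.4 CPM in TET2-KO (log2 fold change -1.23, SE 0.29). Pf4, added to the named genes after its values had been seen, was at 354.6, 349.8, 315.5 and 288.1 CPM in WT and 86.8, 213.2 and 92.2 CPM in TET2-KO (-1.32, SE 0.32). F13a1 stood at -1.39 (SE 0.34) and Pf4 at -1.20 (SE 0.40) against WT 3 and WT 4, and both held. Among other macrophage genes, the groups overlapped in C1qa, Csf1r and Apoe, which did not hold: the complement gene C1qa was at 204.9 to 210.9 CPM in WT and 138 to 268 CPM in TET2-KO, the colony-stimulating factor receptor gene Csf1r at 59.3 to 70.2 CPM and 46.6 to 76.9 CPM, and Apoe at 1540 to 2033 CPM and 1357 to 2378 CPM. Vsig4, a complement receptor of resident macrophages described after its values had been seen, was at 77.9, 72.6, 94.8 and 93.8 CPM in WT and 28.7, 83.4 and 33.9 CPM in TET2-KO, at -0.80 (SE 0.34) and -0.95 (SE 0.44). Only WT 1 and WT 2 overlapped with TET2-KO, through TET2-KO 2, and Vsig4 did not hold. Over the macrophage list, 9 of 16 genes were higher and 7 lower, the median log2 fold change was 0.01, and Lyz1 was the 1 gene that held. The summed list did not differ beyond the spread (two-sided exact permutation test, p = 0.229, where 0.0571 is the smallest that 4 against 3 libraries can give). TET2-KO 3 had the lowest sum, 7980 CPM.

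Epcam, Extl1, Prr5 and Sh2d2a were lower in every TET2-KO library. Epcam codes for an epithelial adhesion molecule; it was at 123, 65.5, 55.3 and 38.4 CPM in WT 1 to 4 and 17.0, 9.85 and 19.5 CPM in TET2-KO 1 to 3. The log2 fold change was -2.19 (SE 0.41), and -1.601 (SE 0.33) against WT 3 and WT 4, and WT 1 had the highest level. Extl1, of the exostosin family of heparan sulfate glycosyltransferases, was at 20.3, 18.2, 14.6 and 12.1 CPM in WT and 6.66, 5.42 and 3.03 CPM in TET2-KO (-1.69, SE 0.33, and -1.41, SE 0.41). Prr5, a subunit of mTOR complex 2, showed a small and even difference: 181.5, 135.8, 151.4 and 167.2 CPM in WT and 98.8, 95.5 and 95.6 CPM in TET2-KO, or -0.72 (SE 0.15) against all WT libraries and -0.72 (SE 0.16) against WT 3 and WT 4. Sh2d2a, an adaptor best known from T cells, was at 9.25 to 19.97 CPM in WT and 3.12 to 5.55 CPM in TET2-KO (-1.65, SE 0.36, and -1.48, SE 0.38). All 4 genes held.

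Cep85, a centrosomal gene at 4:133857169-133914423 (GRCm39), has its start 226.5 kb from that of Extl1 (4:134083683-134111161). It was at 290, 238.1, 141.5 and 87.0 CPM in WT 1 to 4 and 53.8, 51.7 and 35.7 CPM in TET2-KO 1 to 3. The groups did not overlap, but WT 1 and WT 2 lay well above WT 3 and WT 4, and the log2 fold change went from -2.01 (SE 0.40) to -1.28 (SE 0.28) without them; Cep85 held. Tsc22d1, a leucine zipper gene induced by TGF-beta, and the long noncoding RNA gene Gm46597 completed the 10 lower genes. Tsc22d1 stood at -1.86 (SE 0.44) and -1.31 (SE 0.52), Gm46597 at -1.79 (SE 0.42) and -1.66 (SE 0.55), and both held. Gm46597 overlaps the gene Mta3, and counting ignored strand, so their reads cannot be told apart.

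Hspa1a and Hspa1b code for the inducible HSP70 chaperones and are near-identical neighbours on chromosome 17. Hspa1a was at 10.7, 6.81, 11.1 and 51.1 CPM in WT 1 to 4 and 2.82, 1.24 and 2.12 CPM in TET2-KO 1 to 3, and Hspa1b at 35.9, 29.5, 58.2 and 194.6 CPM in WT and 16.5, 11.3 and 9.56 CPM in TET2-KO. Both were lower in every TET2-KO library, and WT 4 alone was several times above the other WT libraries. Scaled over all 21 libraries, Hspa1b was also high in WT 4 of B-1a (123.3 CPM) and B-2 cells (122.9 CPM). In B-1a WT 1 and WT 2 it was at 1.12 and 1.32 CPM, below the TET2-KO B-1a libraries (3.5 to 11.9 CPM). Hspa1a stood at -3.27 (SE 0.76) and -3.91 (SE 0.66), Hspa1b at -2.67 (SE 0.66) and -3.34 (SE 0.50), and both held; since fragments that match both genes were not counted, the split between them is uncertain. In the heat shock list 12 of 13 genes were lower against all WT libraries (50.2% of all genes were), 6 with an unadjusted p under 0.05 beside 1.77% of all genes, with a median of -0.76. Against WT 3 and WT 4 it was 8 of 13, with a median of -0.13, and Hspa1a and Hspa1b were the 2 that held; the cochaperone Dnajb1 (137.4 to 240.3 CPM in WT, 72.5 to 160.2 CPM in TET2-KO) did not.

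**Figure D3:**
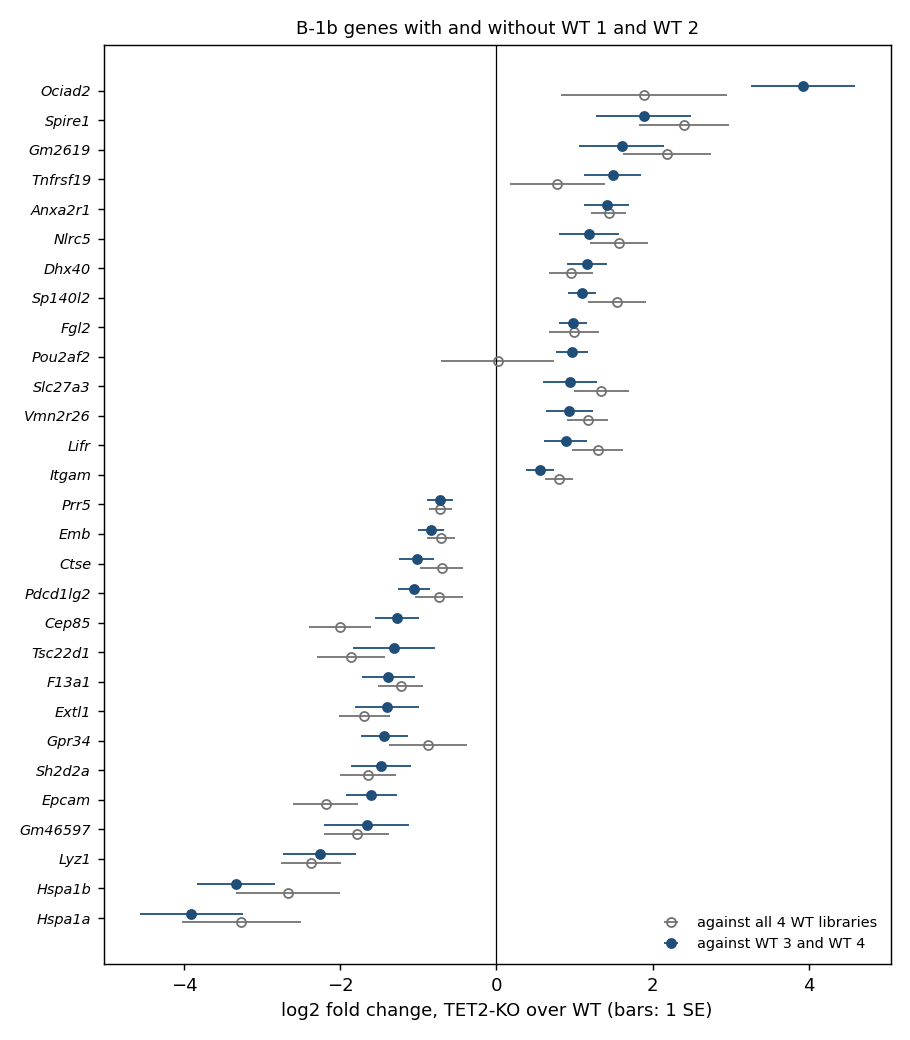
Log2 fold change of TET2-KO over WT in B-1b cells for the named genes chosen in the 2 comparisons, with bars of 1 SE, against all 4 WT libraries (open circles) and against WT 3 and WT 4 (filled circles). The 2 estimates lie close for Prr5 (-0.72 and -0.72) and far apart for Ociad2 (1.89 and 3.92) and Pou2af2 (0.01 and 0.96).

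Further genes were lower against WT 3 and WT 4. These were chosen in that comparison as well, so that they held was fixed apart from direction. Pdcd1lg2, which codes for PD-L2, a ligand of PD-1 carried by many B-1 cells, was at 50.8, 24.3, 57.8 and 67.4 CPM in WT 1 to 4 and 34.1, 26.7 and 29.6 CPM in TET2-KO 1 to 3. The TET2-KO libraries lay below WT 3 and WT 4 and above WT 2, with a log2 fold change of -0.73 (SE 0.31) against all WT libraries and -1.05 (SE 0.20) against WT 3 and WT 4, and the gene held. Emb, an adhesion molecule of the basigin family, stood at -0.71 (SE 0.18) and -0.84 (SE 0.17). The lysophosphatidylserine receptor gene Gpr34 stood at -0.88 (SE 0.50) and -1.44 (SE 0.30), and Ctse, an intracellular aspartic protease, at -0.70 (SE 0.28) and -1.02 (SE 0.22). All 3 held. In Gpr34, WT 1 (7.41 CPM) lay below all TET2-KO libraries (10.2 to 16.8 CPM), and in Ctse WT 2 (29.6 CPM) lay inside their range (27.0 to 36.6 CPM).

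Promoters of named genes are shown because TET2 acts on methylated CG sites; methylation was not measured here, and the sequences are a description. They are RefSeq windows on GRCm38.p6, from 250 bases before to 50 bases after the gene start, 5′ to 3′ on the strand of the gene, with CG dinucleotides in capitals. Shown are 2 genes that were higher (Itgam at chr7:128062390-128062689, plus strand, and Fgl2 at chr5:21372423-21372722, plus strand) and 2 that were lower (Epcam at chr17:87635729-87636028, plus strand, and Lyz1 at chr10:117292819-117293118, minus strand).
Itgam: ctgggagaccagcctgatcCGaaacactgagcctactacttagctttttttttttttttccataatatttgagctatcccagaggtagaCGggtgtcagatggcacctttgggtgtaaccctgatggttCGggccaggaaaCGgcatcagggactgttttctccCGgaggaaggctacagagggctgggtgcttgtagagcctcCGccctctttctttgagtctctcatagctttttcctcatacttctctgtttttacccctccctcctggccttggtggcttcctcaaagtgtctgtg
Fgl2: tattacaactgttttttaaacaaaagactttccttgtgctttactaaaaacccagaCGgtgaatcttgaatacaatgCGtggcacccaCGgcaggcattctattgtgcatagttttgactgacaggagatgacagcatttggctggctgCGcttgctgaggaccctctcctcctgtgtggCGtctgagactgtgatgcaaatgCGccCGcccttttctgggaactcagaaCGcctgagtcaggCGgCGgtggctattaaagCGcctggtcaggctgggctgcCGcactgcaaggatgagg
Epcam: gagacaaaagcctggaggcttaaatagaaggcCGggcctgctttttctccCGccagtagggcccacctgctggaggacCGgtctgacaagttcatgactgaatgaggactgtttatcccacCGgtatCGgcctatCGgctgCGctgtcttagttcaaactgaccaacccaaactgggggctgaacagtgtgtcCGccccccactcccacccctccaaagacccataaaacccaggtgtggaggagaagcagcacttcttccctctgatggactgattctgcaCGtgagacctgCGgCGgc
Lyz1: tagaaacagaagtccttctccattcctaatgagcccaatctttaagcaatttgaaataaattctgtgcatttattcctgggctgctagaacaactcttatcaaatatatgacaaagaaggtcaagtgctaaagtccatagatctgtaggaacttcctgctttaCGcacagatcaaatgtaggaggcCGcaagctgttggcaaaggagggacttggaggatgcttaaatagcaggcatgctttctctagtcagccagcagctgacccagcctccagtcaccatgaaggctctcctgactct
Itgam had 6 CG dinucleotides in this window, Fgl2 12, Epcam 11 and Lyz1 2, beside a median of 7 and quartiles of 3 and 20 over the 32851 promoters of the table. Of these promoters 23.3% had no more CG dinucleotides than that of Lyz1, and 62.1% no more than that of Fgl2, so the 4 windows lay within the middle and lower part of the range. Anxa2r1 has no promoter shown.

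The Hspa1a (chr17:34972107-34972406) and Hspa1b (chr17:34959189-34959488) windows, both on the minus strand of GRCm38.p6, are shown because the pair was lower together. Capitals mark GAANNTTC, a core of the heat shock element, which reads the same on both strands.
Hspa1a: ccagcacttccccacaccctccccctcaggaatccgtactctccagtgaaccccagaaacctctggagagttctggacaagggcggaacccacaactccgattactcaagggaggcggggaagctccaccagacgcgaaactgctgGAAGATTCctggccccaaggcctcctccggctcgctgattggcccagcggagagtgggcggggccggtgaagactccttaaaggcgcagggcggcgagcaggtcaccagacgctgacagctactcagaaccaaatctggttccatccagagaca
Hspa1b: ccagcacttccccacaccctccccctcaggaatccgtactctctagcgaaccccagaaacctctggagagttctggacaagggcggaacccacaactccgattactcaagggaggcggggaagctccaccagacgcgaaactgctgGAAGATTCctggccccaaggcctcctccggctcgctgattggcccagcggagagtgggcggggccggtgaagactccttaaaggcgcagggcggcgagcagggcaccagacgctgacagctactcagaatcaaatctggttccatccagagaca
The 2 windows differed at 4 of 300 positions. Each held 1 match to GAANNTTC, and 7.86% of all promoters in the table held at least 1; whether a factor binds there was not measured.

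Most listed genes typical of B-2 cells were lower in TET2-KO, and this list is the one most exposed to the labels of WT 1 and WT 2. Its summed level was 3451, 5942, 3340 and 3184 CPM in WT 1 to 4. In TET2-KO 1 to 3 the sum was 3220, 2543 and 2645 CPM. The sums overlapped, also against WT 3 and WT 4 (two-sided exact permutation test over all 7 libraries, p = 0.114). Of 9 listed genes tested, 9 were lower against all WT libraries (50.2% of all genes were; median log2 fold change -0.74), and 7 of 9 were lower against WT 3 and WT 4 (48.8% of all genes; median -0.51). Against WT 3 and WT 4, 4 of them held. Fcer2a was at 62.2 and 69.9 CPM in WT 3 and WT 4 and 40.7, 41.4 and 31.8 CPM in TET2-KO (log2 fold change -0.80, SE 0.20). Cr2, the gene of complement receptor CD21, was at 31.7 and 43.5 CPM and 17.3, 24.1 and 23.1 CPM (-0.81, SE 0.25). Ccr7, the chemokine receptor for lymph node homing, was at 420.8 and 401.8 CPM and 265.3, 203.1 and 158.3 CPM (-0.98, SE 0.24), and Cd55, which restrains complement, at 582 and 523.9 CPM and 428, 374.4 and 330.2 CPM (-0.55, SE 0.19). Klf2, of the same list, went the other way without overlap and did not hold. It was at 885.2 and 683.8 CPM in WT 3 and WT 4 and 934.2 to 1033 CPM in TET2-KO, scaled over all 21 libraries. On the same scale Bach2 was at 30.5 and 31.5 CPM in WT 3 and WT 4. It was at 33.3, 39.1 and 30.7 CPM in TET2-KO, with overlap, and did not hold. The 4 lower genes that held stand beside 11% of all genes whose groups did not overlap in this direction. An unadjusted p under 0.05 in this direction was reached by 1.06% of all genes. WT 2 lay above WT 3 and WT 4 in all 4, and WT 1 lay below the TET2-KO range in Fcer2a, Cr2 and Cd55 and inside it in Ccr7. Against all WT libraries the log2 fold changes were -2.23 (SE 1.01) for Fcer2a, -1.37 (SE 0.69) for Cr2, -1.24 (SE 0.46) for Ccr7 and -0.55 (SE 0.28) for Cd55.

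Of the homing genes, Ccr6, the receptor of CCL20, was at 2.39, 27.5, 18.3 and 23.1 CPM in WT and 6.04, 5.25 and 1.55 CPM in TET2-KO. WT 1 lay within the TET2-KO range and the other 3 above it, and against WT 3 and WT 4 Ccr6 held at -2.27 (SE 0.54; DESeq2 adjusted p 0.0222), after -2.06 (SE 0.75) against all 4. Ccr9, a gut-homing receptor, stood at -1.31 (SE 0.57) and -1.003 (SE 0.39) and held, with WT 2 (3.33 CPM) below all TET2-KO libraries (4.06 to 4.60 CPM).

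The GIMAP genes, a family of GTPases of lymphocyte survival, were lower in 7 of 8 cases, with a median log2 fold change of -0.24. Groups did not overlap for 4 of the 8, beside 3.53% of all genes. Gimap7 was at 263.3, 353.2, 285.6 and 285.6 CPM in WT 1 to 4 and 210, 173.3 and 132.7 CPM in TET2-KO 1 to 3, and held (-0.79, SE 0.20; -0.73, SE 0.23). Gimap6 (-0.47, SE 0.21), Gimap1 (-0.31, SE 0.15) and Gimap5 (-0.24, SE 0.15) were lower in every TET2-KO library and did not hold, at -0.51, -0.29 and -0.22 against WT 3 and WT 4. The summed list was at 4114 to 4284 CPM in WT and 3912, 3307 and 2816 CPM in TET2-KO, with no overlap, and reached the smallest p that the exact permutation test allows (p = 0.0571). Among the 37 lists, the immediate early, dendritic cell, sex-linked and platelet sums reached this value too. These p-values were not adjusted for the number of lists, and WT 1 and WT 2 were included. T and NK cell markers also reached it, with sums of 117, 98.5, 63.6 and 62.0 CPM in WT and 58.3, 59.8 and 26.9 CPM in TET2-KO. Among them Lck, a kinase of T cells and B-1 cells, held (-0.66, SE 0.22, and -0.74, SE 0.30). Of the T cell receptor genes, Cd3d and Cd3e were at no more than 9.23 CPM. Cd3g was at 45.1 CPM in WT 1 and 4.87 to 11.3 CPM in the other B-1b libraries, and at 37.02 and 52.48 CPM in B-1a WT 3 and WT 4. The part of T and NK cells in the GIMAP difference was not tested.

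Genes of antigen presentation and B cell receptor signalling had small fold changes, in some lists mostly in 1 direction. Of 14 MHC class II genes 11 were lower against all WT libraries (50.2% of all genes were), with a median of -0.41. Against WT 3 and WT 4 it was 12 of 14 (48.8% of all genes), with a median of -0.14. H2-Oa and H2-DMb2, which regulate peptide loading, had groups that did not overlap (log2 fold changes -0.61, SE 0.22, and -0.48, SE 0.19), and neither held. They were 2 of the 14, beside 3.53% of all genes in this direction. Of 23 B cell receptor signalling genes, 11 were higher and 12 lower; the calcium channel gene Itpr1 was higher by 0.74 (SE 0.24) and the coreceptor gene Cd81 lower by -0.33 (SE 0.16), both with no overlap, and neither held. Of 17 inhibitory coreceptors and adaptors, 15 were higher (49.8% of all genes were), with a median of 0.18 and 0 with an unadjusted p under 0.05. Against WT 3 and WT 4, 14 of 17 were higher (51.2% of all genes), with a median of 0.23. Siglecg, the sialic acid-binding inhibitor of B-1 cell receptor signalling, was at 337.6, 420.2, 778.4 and 818.2 CPM in WT and 851, 897.2 and 820.8 CPM in TET2-KO; WT 3 and WT 4 lay next to TET2-KO 3, and it did not hold.

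Activation and survival genes were mixed. Of 21 immediate early genes tested, 15 were lower (50.2% of all genes were). Their sum did not overlap between groups (2494 to 2847 CPM in WT, 1952 to 2405 CPM in TET2-KO). Against WT 3 and WT 4, 14 of 22 were lower (48.8% of all genes). There 7 were lower without overlap, beside 11% of all genes, and 3 genes of the list held. Among these, Cd69 is an early activation antigen that retains lymphocytes in tissue. It was at 165.8, 505, 243.8 and 243.1 CPM in WT and 169.1, 140.9 and 67.9 CPM in TET2-KO (-1.20, SE 0.42, and -0.95, SE 0.36). Bcl2l11, which codes for the proapoptotic protein BIM, was at 14.1 and 16.8 CPM in WT 3 and WT 4 and 25.2, 22.4 and 27.2 CPM in TET2-KO, a log2 fold change of 0.69 (SE 0.24), or 0.20 (SE 0.27) against all WT libraries. It held, but WT 1 and WT 2 (27.6 and 28.1 CPM) were above all TET2-KO libraries. Abca1, the cholesterol efflux transporter, held at -0.35 (SE 0.15) and -0.46 (SE 0.18). Krt18, a keratin gene counted with the mesothelial markers, stood at 0.65 (SE 0.58) and 0.97 (SE 0.29) and held, although WT 1 (27.3 CPM) lay above all TET2-KO libraries (17.3 to 21.9 CPM).

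Interferon-stimulated genes were higher in 21 of 24 cases, beside 49.8% of all genes, with a median log2 fold change of 0.42, but 1 library decided their level. The summed list was at 524.3 to 646.2 CPM in WT and 1266, 618.8 and 505.4 CPM in TET2-KO 1 to 3. Rtp4 was at 79.1 CPM and Irf7 at 52.2 CPM in TET2-KO 1, against 6.41 to 15.9 CPM and 3.89 to 14.6 CPM in the other 6 libraries. Ifit1 did not overlap between groups (1.22 to 2.18 CPM in WT; 10.4, 2.54 and 3.43 CPM in TET2-KO) and did not hold. Without TET2-KO 1 the median of the list was -0.08.

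Several lists shifted against all 4 WT libraries and not against WT 3 and WT 4. Cytosolic ribosomal protein genes were lower in 80 of 82 cases (median -0.29) and then higher in 57 of 82 (median 0.05; 51.2% of all genes were higher there), and nuclear oxidative phosphorylation genes lower in 77 of 80 cases (median -0.25) and then higher in 46 of 80 (median 0.02). Cell cycle genes went from 20 of 25 lower (median -0.24) to 16 of 25 (median -0.01). T and NK cell markers went from 13 of 13 lower (median -0.88) to 7 of 13 (median -0.003). Olfactory receptor genes, which B cells are not known to use, were higher in 62 of 74 cases (median 1.16), then in 55 of 119 (median -0.09). Their summed level was 8.33 and 6.25 CPM in WT 1 and WT 2 and 93.5 to 406.5 CPM in the other 5 libraries. WT 1 and WT 2 of B-1a cells (8.12 and 12.6 CPM) and WT 1 of B-2 cells (7.20 CPM) were as low. All remaining libraries of the series were at 59.7 CPM or more. Vomeronasal receptor genes were higher in 40 of 42 cases (median 1.16), then in 37 of 64 (median 0.30), with sums of 6.62 and 12.1 CPM in WT 1 and WT 2 and 59.6 to 240.6 CPM in the others; Vmn2r50 held, at no more than 5.27 CPM in any library. WT 1 and WT 2 also had counts on fewer genes (18074 and 19255) than WT 3 and WT 4 (25898 and 27677), but TET2-KO 3 had counts on 17816 genes, and the part of library complexity in these lists was not tested. Vmn1r71 and Or4b1d, called by DESeq2, had 0 counts in all WT libraries and most of their counts in TET2-KO 3; they were not tested by edgeR.

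**Figure D4:**
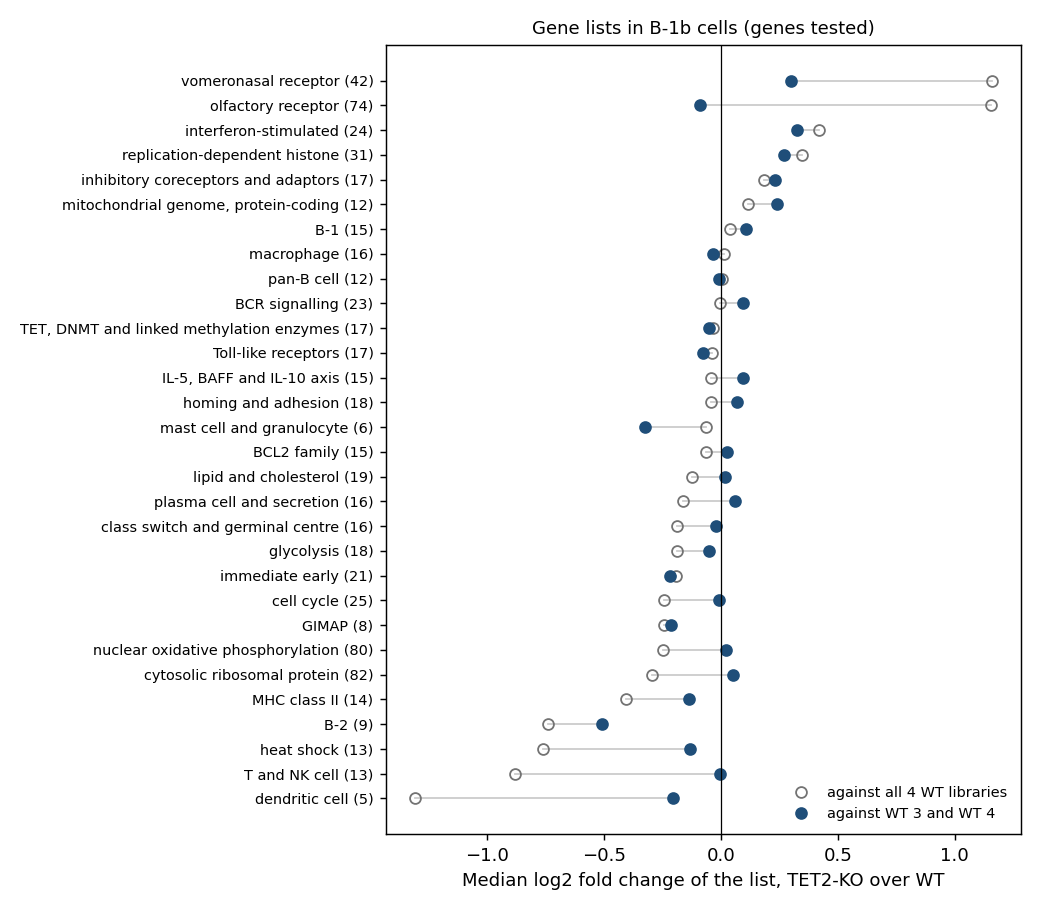
Median log2 fold change of each gene list in B-1b cells against all 4 WT libraries (open circles) and against WT 3 and WT 4 (filled circles), with the number of genes tested against all WT libraries in parentheses; lists with at least 5 genes tested in both are drawn. The median over all genes is -0.003, and lists such as the cytosolic ribosomal proteins move from -0.29 to 0.05 between the 2 comparisons.

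The TET2 effect in B-1b cells was set beside that in B-1a cells, which rests on other libraries. Among B-1a libraries, WT 1 had 814.8 CPM of Fcer2a and WT 2 had 1.6 CPM of Cd5, so both went against the B-1a label. The same 2 libraries had no counts of the Y-linked gene Eif2s3y, which stood at 61.9 to 111.4 CPM in the other 19 libraries of the series, all 7 B-1b libraries included. B-1a values are given for TET2-KO 1 to 4 against WT 3 and WT 4. Of the 59 higher B-1b genes that held, 53 were also higher in B-1a cells (53.6% of all genes were) and 24 did not overlap there, beside 4.75% of all genes. Of the 66 lower genes, 63 were lower (46.4% of all genes were) and 42 did not overlap, beside 6.88%. The direction was opposite without overlap for 0 of the 59 and 0 of the 66. Some levels went with the library number in both subsets. Scaled over all 21 libraries, Rtp4 was at 94.3 CPM in B-1a and 82.8 CPM in B-1b TET2-KO 1. It was at 6.35 to 16.0 CPM in the other TET2-KO libraries of these subsets. Hspa1b was highest in WT 4 of both subsets. The agreement between subsets can therefore not be counted as coming from separate mice. Whether mice, cages or sort days were shared between the B-1a and B-1b libraries of a genotype was not tested.

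Of the 30 genes chosen in the 2 comparisons, 29 had the same direction in B-1a cells and 24 did not overlap there. Sp140l2 was at 25.03 and 30.9 CPM in WT 3 and WT 4 and 76.4 to 110.2 CPM in TET2-KO B-1a libraries (log2 fold change 1.71, SE 0.20). Epcam was at 111.1 and 62.5 CPM and 11.4 to 21.03 CPM (-2.61, SE 0.32), and Lyz1 at 1363 and 1294 CPM and 63.8 to 485.2 CPM (-2.42, SE 0.65). Anxa2r1 was higher by 0.92 (SE 0.32). Cep85 did not share its direction, with widely spread B-1a libraries. It was at 148.4 and 86.2 CPM in WT 3 and WT 4 and 74.6, 128.1, 21.7 and 270.2 CPM in TET2-KO 1 to 4 (0.08, SE 0.72). Itgam, Nlrc5, Vmn2r26, Pou2af2 and Gm46597 also overlapped in B-1a cells, with log2 fold changes of 0.18, 0.44, 0.17, 0.07 and -0.86. Gm46597 overlapped through TET2-KO 2 alone (35.4 CPM). TET2-KO 1, 3 and 4 were at 2.58, 1.04 and 1.42 CPM, below WT 3 and WT 4 (17.2 and 19.5 CPM).

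The difference between the effects was tested over all 15 B-1 libraries. These entered as independent, so mice or sorts shared by the 2 subsets, if any, were not taken into account in the errors and p-values. By edgeR 0 of 15643 genes had an adjusted p under 0.05, 162 (1.04%) had an unadjusted p under 0.05, and DESeq2 called 0. The smallest unadjusted p of the 30 genes in this test was 0.0261, for Gpr34, with an edgeR adjusted p of 1.00. Without WT 1 and WT 2 of both subsets, edgeR gave 0 of 16766 genes an adjusted p under 0.05 and 133 (0.793%) an unadjusted p under 0.05; the smallest of the 30 genes was then 0.0256, for Ociad2, whose log2 fold change was larger in B-1b cells by 2.33 (SE 0.92; edgeR adjusted p 1.00). For Cep85 the effect in B-1b minus that in B-1a was -1.37 (SE 1.05; edgeR unadjusted p 0.223) in that test. None of the 30 genes thus had a difference past the threshold, and the errors leave room for large ones.

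**Figure D5:**
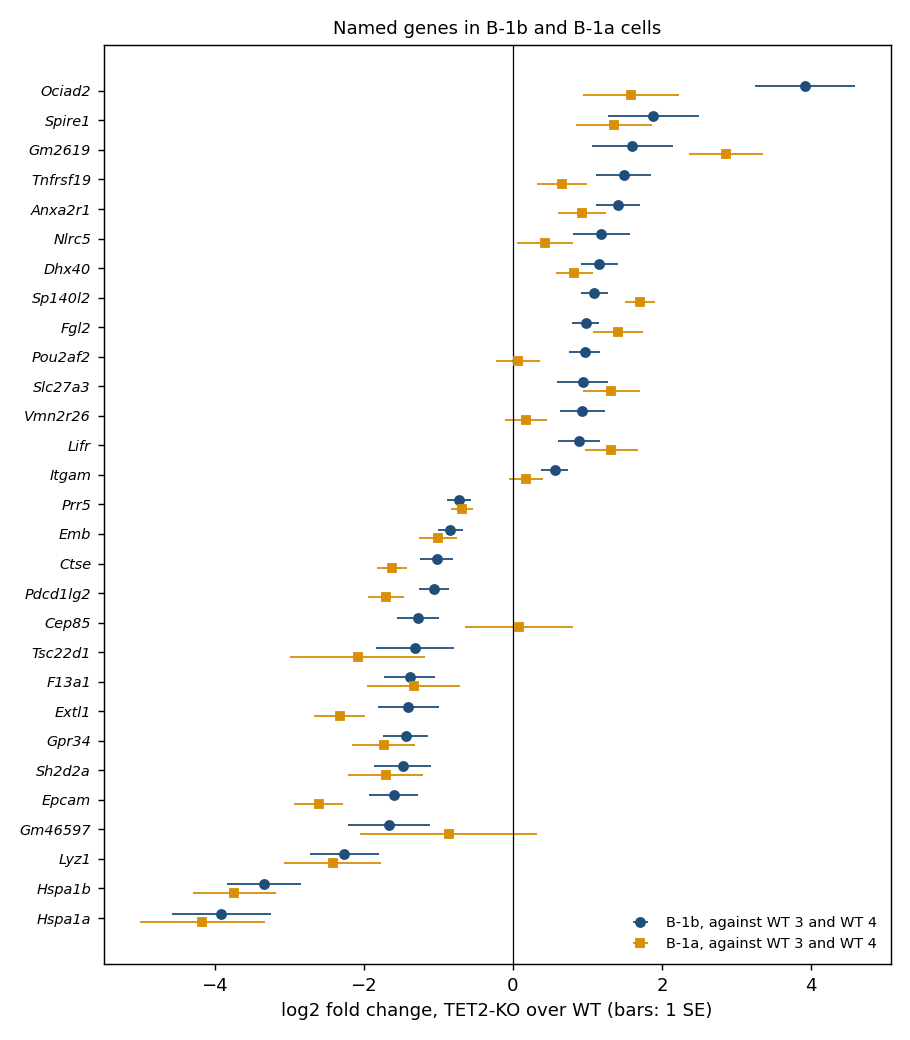
Log2 fold change of TET2-KO over WT 3 and WT 4 for the named genes in B-1b cells (circles) and B-1a cells (squares), with bars of 1 SE. Epcam is low in both (-1.601 and -2.61) and Sp140l2 high in both (1.09 and 1.71). Cep85 is at -1.28 (SE 0.28) in B-1b and 0.08 (SE 0.72) in B-1a cells, a difference that did not pass the test.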

How the data were processed

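RNA was measured in 21 libraries of sorted peritoneal B cells, of which the 7 B-1b libraries were compared and the B-1a libraries set beside them. Per the labels, the file headers and the study's methods, the authors trimmed reads with fastp, aligned them with STAR to GRCm39 and counted fragments per gene with featureCounts 1.6.1 on GENCODE vM32, without strand and without fragments that match several places or genes. The deposited values are raw counts, 1 library per file. Gene types and symbols came from GENCODE vM39, and promoters from RefSeq on GRCm38.p6.

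Genes were filtered by filterByExpr and tested with edgeR 4.0.16 (R 4.3.3; TMM, robust quasi-likelihood, Benjamini-Hochberg over all genes tested, immunoglobulin genes included, threshold 0.05). DESeq2 1.42.0 was an alternative. TET2-KO libraries were compared with all WT libraries and with WT 3 and WT 4, and the difference from B-1a cells was an interaction term. The scripts were tested on simulated data. Summed lists were compared by exact permutation over libraries. The members, gene lists and the rule on WT 1 and WT 2 were chosen with earlier results of these data known. Named genes were the 10 per direction with the smallest unadjusted p against all WT libraries and the 8 against WT 3 and WT 4, among genes with groups that did not overlap and a mean of at least 5 CPM in a group, plus at most 4 per list, at most 5 per direction from DESeq2, and Tet2. Some genes that these rules chose are counted but not reported here. Pf4 and a platelet list were added after their values had been seen. The study counts its samples as mice, and p-values measure the spread between these libraries. Depth sets the error of low genes, and intervals of counting error are not given because replicate spread was used.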

Additional observations from a re-analysis of the deposited data

Results flagged for a closer look

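In 60 genes, the 4 WT B-1b libraries were searched for a library far from the others by Dixon's test, and 6 genes had one; chance gives about 1 in 20. WT 1 was the high library for Pou2af2 (609.6 CPM) and Ociad2 (6.98 CPM), and WT 2 was the high library for Fcer2a (565.3 CPM) and H2-Oa (209.2 CPM). WT 4 was the high library for Hspa1a (51.1 CPM). WT 3 was the low library for Dnajb1 (137.4 CPM). Of these 6 genes, Pou2af2, Ociad2, Fcer2a and Hspa1a held against WT 3 and WT 4, and H2-Oa and Dnajb1 did not.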

How the results depend on the processing

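Of 958 values of 60 genes under the alternatives, 952 kept their direction. Tet2 went to -0.088 without WT 1 and WT 2. Pou2af2 went to -0.033 with no filter on low counts and ranged from -0.32 to 1.29 when 1 library was left out. The count of genes with an adjusted p under 0.05 was 0 by edgeR in all 3 comparisons; with no filter it was 89, 37 and 37 (against all WT libraries, against WT 3 and WT 4, and for the difference from B-1a cells), and by DESeq2 38, 23 and 0. Leaving out 1 library at a time gave 0 to 31 against WT 3 and WT 4, with 31 only without TET2-KO 3 (14 higher, 17 lower). The other alternatives gave 0. Of 590 list medians 27 moved by more than the spread; the cause was not tested.

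Replicate numbers were shared by the groups but did not pair the libraries: deviations of same-numbered libraries correlated at 0.12, -0.08 and 0.04. With the replicate number as a block, 0 genes had an adjusted p under 0.05 and 935 an unadjusted p under 0.05, against 712 without it.

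With 3 TET2-KO libraries and 2 WT libraries whose markers fit the label, differences smaller than the spread between libraries were not detectable, and genes under about 5 CPM carry large errors.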
